A study of Canis lupus familiaris with 10 samples.

Results

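Late canine cutaneous histiocytomas (CCH) that the labels describe as lymphocyte enriched were examined here on their own, for the genes they expressed most and the genes in which they differed most from each other. The labels place 5 of the 10 samples of the series in group 3 of the staging scheme of Cockerell and Slauson, each one a formalin-fixed, paraffin-embedded (FFPE) tumor of a different dog and each marked as a reanalysis. The dogs of these tumors were 1.5 to 9 years old, 4 were male (1 of them neutered) and 1 was female, and no treatment is given. The DV200 value of the labels, the percentage of RNA fragments above a set length, was 71.2 to 75.8%. The table columns carry the stage and an identifier of the study, but not the sample names of the labels. The libraries are therefore named late library 1 to 5 in column order. The ages, sexes and DV200 values of the labels could not be linked to them. The sample sheet of the study uses these identifiers, but its DV200 for late library 5 differs from the label of the last late sample. No DV200 was therefore linked to a library. According to the study's methods, tissue next to the tumors was taken off, and RNA was extracted from scrolls of the remaining cross sections.

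CCH is a benign skin tumor of young dogs that arises from Langerhans cells, the antigen-presenting dendritic cells of the epidermis. It usually regresses without treatment, and regression is accompanied by an infiltrate of lymphocytes in which cytotoxic T cells prevail. Antigen-presenting cells display peptides on MHC class II molecules. Cytotoxic T cells and natural killer cells kill their targets with perforin and granzymes, and B cells are recognized by their antigen receptor complex and surface molecules such as the product of MS4A1 (CD20). In whole tissue, fewer cells of a type and less RNA per cell of that type cannot be told apart.

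QuantSeq 3′ yields 1 fragment near the polyadenylated end of a transcript, and values are therefore compared between genes without a correction for length. All values are normalized read counts, the number of reads of a gene divided by the size factor of its library. The libraries held 2973125 to 3230455 reads in genes, and 16385 to 16986 of the 23266 gene symbols had at least 1 read. A single read corresponded to a value of 0.951 to 1.05, so that a gene at 0 may have been present at a value of up to about 3 (3 reads, 2.85 to 3.15 depending on the library). Intervals given below are exact Poisson 95% intervals of the reads and cover counting error only. With 5 dogs of a single group no groups were compared, and the spread among the libraries is the result itself. Late library 3 stood somewhat apart. Its Pearson-log coefficient, the Pearson correlation of log2(value + 1) across genes, was 0.821 to 0.888 with the other libraries, whereas all other pairs lay between 0.874 and 0.921.

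The most abundant transcripts of the late tumors came from antigen presentation, the actin cytoskeleton and the ribosome. The 10 genes with the highest mean took 7.52% ± 1.11 (SD, n = 5) of all values of a library, with 6.0% in late library 1 as the lowest and 8.57% in late library 4 as the highest share. MHC genes and their partner chains made up 6 of the first 20 places. HLA-DRB1, the symbol the table uses for a class II beta chain, had values of 32412, 29332, 43822, 33703 and 32712 in late libraries 1 to 5 (34396 ± 5517, SD). CD74, the invariant chain that escorts class II molecules, was at 12530, 12205, 22567, 14446 and 14883. Late library 3 was highest for both genes, and the other 4 libraries lay within a narrow range. Without it the SD of log2(value + 1) of CD74 was 0.14 in place of 0.36, and that of HLA-DRB1 was 0.09 in place of 0.22. DLA-DRA, the class II alpha chain, ranged from 9749 in late library 1 to 15736 in late library 4. The class I heavy chain genes DLA-64 and DLA88 and the light chain B2M had means of 17665, 17051 and 16538. Their log2 SDs were 0.18, 0.14 and 0.21, each below 0.24, the 25th percentile of genes with a mean of at least 50. Without late library 1 the log2 SD of DLA-64 was 0.11 and that of DLA88 was 0.04. These heavy chain genes had similar values in every library, and reads that map to several places had been divided evenly. The share of such reads in either gene was not tested.

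**Figure D1:**
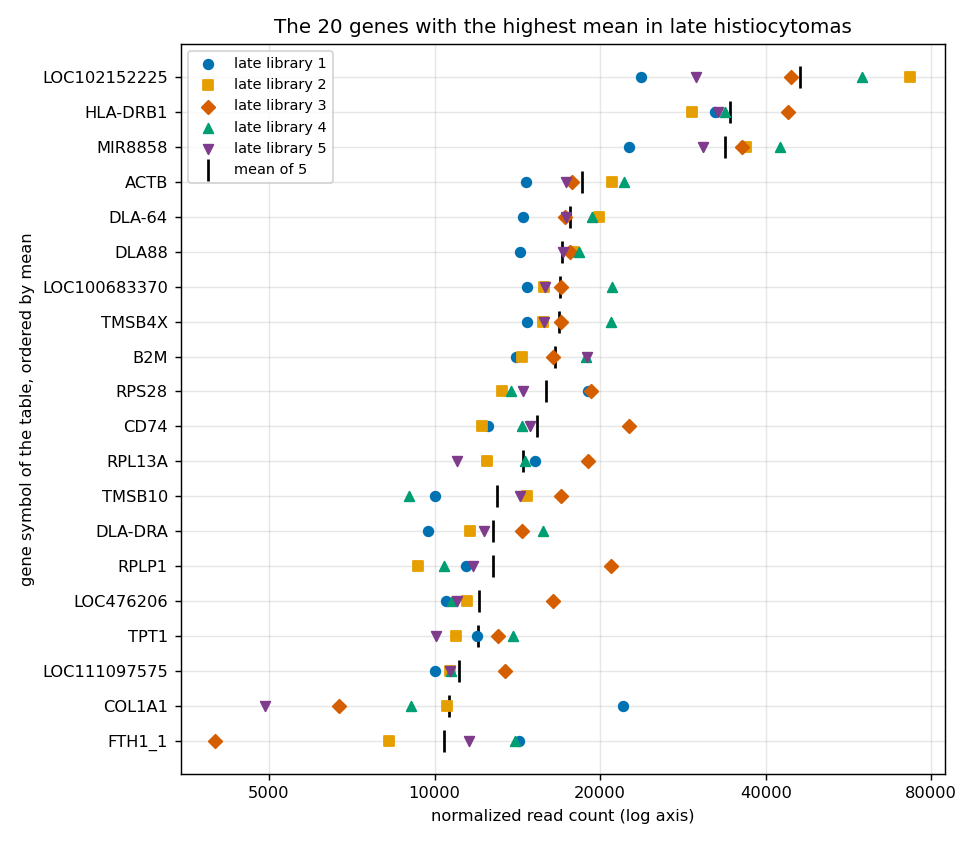
The 20 genes with the highest mean, on a logarithmic axis of normalized read counts, with 1 point per late library and a vertical bar for the mean of the 5 libraries. Most genes lie within a narrow band, whereas COL1A1 spreads from 4912 to 22000 and FTH1_1 from 3994 to 14231.

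Cytoskeletal and translation genes filled most of the remaining places. ACTB (beta-actin) averaged 18548 ± 2986 and TMSB10, which binds actin monomers, 12999 ± 3370. TMSB4X and LOC100683370 had nearly the same value in every library (means of 16855 and 16873), and reads that map to several places had been divided evenly among them, so that neither level can be attributed to 1 locus. The same holds for FTH1 and FTH1_1, the ferritin heavy chain that stores iron. Ribosomal proteins RPS28, RPL13A and RPLP1, the translationally controlled TPT1, and LOC476206, which the RefSeq table of a more recent assembly lists as RPS12, had means of 11972 to 15939. In all, 78 ribosomal protein genes had a mean of at least 50 (10.5% ± 1.56 of all values for the whole list). Of these 78 genes, 69 were highest in late library 3, against 22.8% of all genes with such a mean. The symbol with the highest mean of all, LOC102152225, was at 23704, 73187, 44451, 59755 and 29851. Neither it nor LOC111097575 had a name in the sources used here. MIR8858, at a mean of 33759, is the symbol of a microRNA locus, and a library primed on polyadenylated RNA does not count mature microRNAs, so that the transcript behind this value was not identified.

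COL1A1, the main chain of type I collagen in dermis, was the only matrix gene among the 20 and one of the least even. Its values were 22000, 10538, 6701, 9058 and 4912, a 4.48-fold range with late library 1 on top. Without late library 1 its log2 SD was 0.49 in place of 0.81. FTH1_1 was at 14231, 8251, 3994, 14025 and 11540, with late library 3 the lowest by 2.07-fold. Without that library its log2 SD was 0.37 in place of 0.76. In RPLP1 that library was the highest, with 20887 against 9322 to 11749 elsewhere. Without it the log2 SD of RPLP1 was 0.15 in place of 0.45.

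Marker genes of lymphocytes were set beside the labels' description of these tumors as rich in lymphocytes. No other tissue entered, so that enrichment itself was not tested. CD3E, the signaling chain of the T cell receptor complex, was present in every library with values of 1015, 686, 708, 877 and 813, which put it at place 549 of all symbols by mean. GZMK, a granzyme of memory CD8+ T cells, held place 85, with 5282, 4310, 2223, 3799 and 3407. CCL5, a chemokine made by activated T cells and natural killer cells, held place 59. CD79B, a chain of the B cell receptor complex, was lower and far less even, at 31.8, 64.7, 434, 65.4 and 30.4. All libraries therefore carried CD3E and GZMK transcripts, while CD79B was high in late library 3 alone. The interval of CD79B in that library, 395 to 476, was separate from those of the other libraries, whose highest upper bound was 83.6.

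Markers of Langerhans cells were mixed. Among 13 genes of the Langerhans and dendritic cell list with a mean of at least 50, CD86 (a costimulatory molecule) and FSCN1 (fascin, of dendritic cell processes) averaged 1237 ± 137 and 1174 ± 426. CD1D was at 968, 358, 1111, 582 and 314, and CD1A6, a CD1 molecule, at 118 to 213. CD1A8 reached only 35.8 and lay at 0 in late library 4, and CD1B and CD1C did not exceed 15.9 and 11.6. FLT3 and EPCAM had means of 40.6 and 34.8, FCER1A of 17.5. None of the 13 genes passed a log2 SD of 1, which 3.28% of all genes with a mean of at least 50 reached. Of the 13 genes, 7 were highest in late library 3, against 22.8% of all genes with such a mean. Among the 7 was LAMP3 of mature dendritic cells (157, 187, 599, 214 and 107).

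Genes were then ranked by the SD of log2(value + 1) over the 5 libraries, among the 8374 genes with a mean of at least 50. A log2 SD of at least 1, a typical deviation of 2-fold, was reached by 275 genes, 3.28% of those ranked, and 69 of them had LOC symbols. The median log2 SD of all ranked genes was 0.34, with a 10th percentile of 0.17 and a 90th percentile of 0.68. Counting alone would give a median of 0.12. All 275 variable genes had more than 2 times their own counting SD, as did 77.9% of all ranked genes. At the edge of the limit, PRF1, DNAH10 and ANXA8L1 had log2 SDs of 1.00 just inside, and AMPH, RASEF and F3 of 0.999, 0.999 and 0.998 just outside.

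The variable genes were not shared evenly among the tumors. Late library 3 was the lowest library for 112 of the 275 genes (40.7%), against 24.3% of all ranked genes. Late library 2 was highest for 74 (26.9%), against 15.0% of all ranked genes. Late libraries 2 and 5 held both upper places for 83 of the variable genes (30.2%), against 12% of all ranked genes. Without late library 3 the number of variable genes was 237, of which 173 belonged to the 275.

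**Figure D2:**
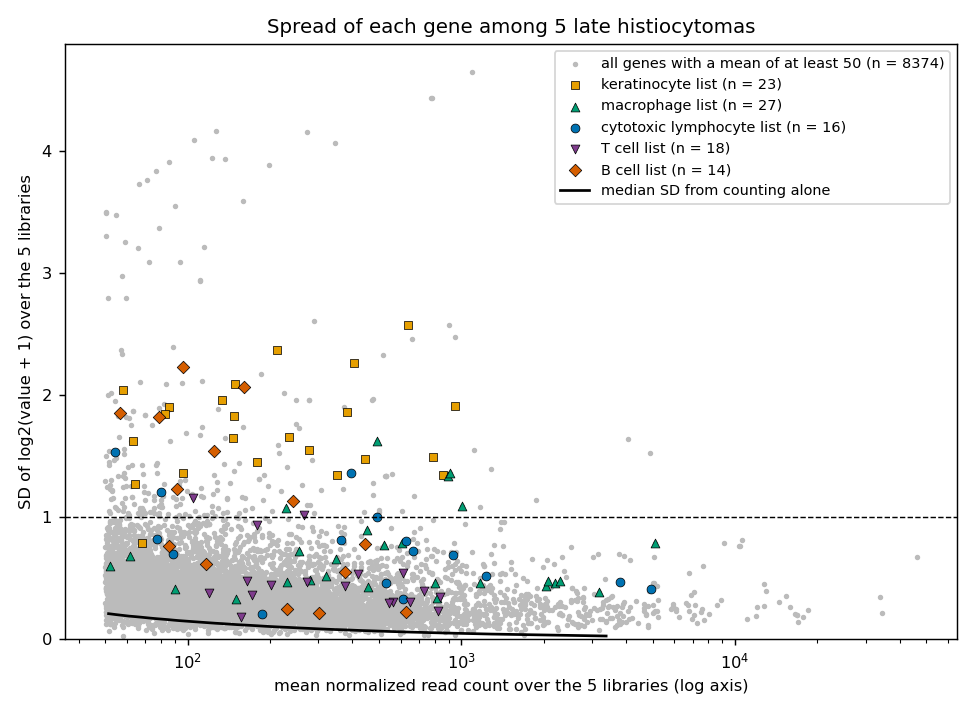
The SD of log2(value + 1) over the 5 late libraries against the mean normalized read count on a logarithmic axis, 1 gray point per gene, with colored symbols for 5 gene lists, a black line for the median SD that counting alone gives and a dashed line at an SD of 1. Keratinocyte genes lie almost entirely above the dashed line (22 of 23), so do 7 of 14 B cell genes, and most T cell genes lie far below it (2 of 18 above).

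Cell type lists summarized the differences. To score a list, log2(value + 1) of each member with a mean of at least 50 was centered on the average of that gene over the 5 libraries, and the centered values were averaged per library. Its range from the lowest to the highest library was 3.88 for keratinocytes, 2.41 for B cells, 1.27 for cytotoxic lymphocytes, 0.99 for macrophages and 0.52 for T cells. The share of variable genes followed a similar order, with 22 of 23 keratinocyte genes, 7 of 14 B cell genes, 4 of 16 cytotoxic genes, 5 of 27 macrophage genes and 2 of 18 T cell genes, beside 3.28% of all ranked genes. The median log2 SD was 1.66, 0.96, 0.71, 0.51 and 0.41 in the same order, beside 0.34 over all ranked genes.

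**Figure D3:**
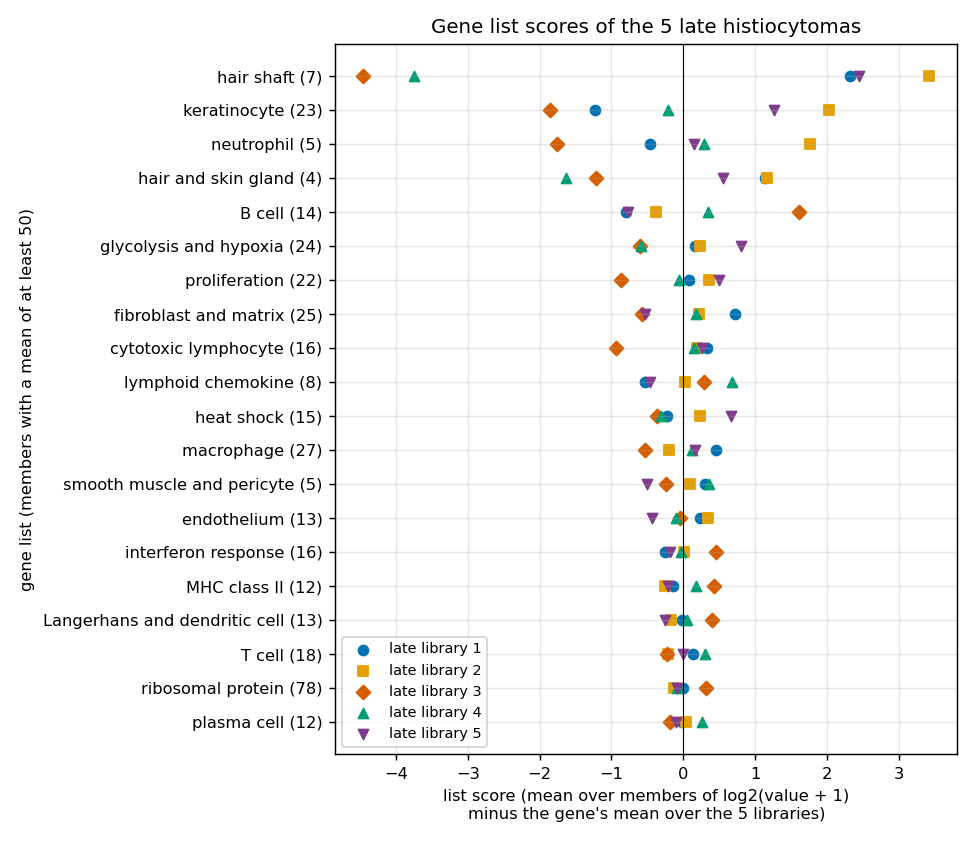
Scores of the gene lists with at least 3 members past a mean of 50, 1 point per late library, with the number of members behind each list name and the lists ordered by range. Late library 3 has the lowest keratinocyte (-1.85), cytotoxic (-0.94) and macrophage (-0.54) score and the highest B cell score (1.61).

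B cell transcripts separated late library 3 from the other tumors. All 14 B cell genes with a mean of at least 50 were highest in that library, against 22.8% of all ranked genes, and the list score was -0.80, -0.38, 1.61, 0.34 and -0.77 in late libraries 1 to 5. Late library 4 was the next for the score. Summed over the 22 listed genes, the values were 1984, 2340, 6557, 3094 and 2316, a 3.31-fold range.

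Of the 14 genes, 7 were variable. MS4A1, which encodes CD20, was at 33.8, 23.8, 576, 150 and 18.9. PAX5, the transcription factor that maintains B cell identity, was at 9.94, 28.5, 339, 94.1 and 7.34. In both late library 3 was highest and late library 4 second, and for PAX5 the Poisson intervals of these libraries (304 to 376 and 75.8 to 115) did not touch each other or those of the remaining libraries. CXCR5, which guides B cells into follicles, was at 30.8, 13.3, 184, 49.1 and 5.25. TNFRSF13C, the receptor for the survival factor BAFF, was at 99.4, 110, 641, 244 and 116. BANK1, a B cell scaffold protein, was at 24.9, 75.2, 231, 90.0 and 35.7, with the same library on top.

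Other genes of the list differed less. CD37 ranged from 512 to 780, and CD180 from 274 to 389. CD22 was at 203, 393, 900, 401 and 318, and CD79A, the partner of CD79B, at 312, 236, 656, 309 and 367. The log2 SD was 1.54 for CD79B but 0.55 for CD79A, 0.22 for CD37 and 0.22 for CD180. Late library 3 decided several of these spreads. Without it the log2 SD was 0.60 for CD79B, 1.32 in place of 2.06 for MS4A1, 0.59 in place of 1.13 for TNFRSF13C, 0.45 in place of 0.78 for CD22, 0.26 for CD79A and 0.04 for CD180, and the range of the B cell score was 0.78.

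Other genes with B cell functions were variable in the same way, although they belonged to no list and were chosen after their values were seen. BTLA, an inhibitory receptor of B and T cells, was at 14.9, 16.2, 244, 23.5 and 11.5. BACH2 and BCL11A, transcription factors of the B lineage, were at 38.8, 48.5, 431, 142 and 80.8 and at 11.9, 56.1, 182, 93.1 and 40.9. Late library 3 was the highest for each of them. Without it the log2 SD was 0.40 in place of 1.76 for BTLA and 0.82 in place of 1.38 for BACH2.

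The plasma cell list had another order, with a score between -0.18 and 0.26 that was lowest in late library 3. TNFRSF17 and MZB1, which define the secreting stage, had means of 6.65 and 5.87, and both were highest in late library 3 (26.1 and 20.3). JCHAIN, which joins polymeric antibodies, was at 199, 136, 506, 466 and 88.1, high in late libraries 3 and 4. CD38 (261, 114, 23.2, 225 and 55.6) and SDC1 (56.7, 199, 19.4, 57.3 and 73.4), which are also made by other cells, were lowest in late library 3.

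Cytotoxic genes showed the reverse picture, with late library 3 at the lower end. Of the 16 cytotoxic genes with a mean of at least 50, 12 were lowest in this library, against 24.3% of all ranked genes, and none was highest there. The list score was 0.33, 0.19, -0.94, 0.15 and 0.26, so that the other 4 libraries differed by only 0.18. Values summed over the 22 listed genes in the table were 17888, 15468, 8796, 16601 and 17226.

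The 4 variable genes were IFNG, GZMA, KLRD1 and PRF1, with log2 SDs of 1.53, 1.36, 1.21 and 1.00. GZMA, a granzyme, was at 302, 607, 62.0, 650 and 355, and PRF1, the pore-forming perforin, at 649, 578, 149, 281 and 805. Late library 3 was lowest for both, by 4.88-fold and 1.89-fold below the next library. IFNG, the main effector cytokine of these cells, was at 64.6, 44.7, 11.6, 11.2 and 138. Late libraries 3 and 4 were equally low for IFNG, with intervals of 6.005 to 20.3 and 5.62 to 20.1, and late library 5 was highest. KLRD1, the natural killer receptor CD94, was at 165, 59.9, 25.2, 122 and 27.3, low in late libraries 3 and 5. KLRG1, a receptor of differentiated effector cells, was at 82.5, 135, 28.1, 60.3 and 81.8.

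The most abundant cytotoxic genes were more even. CCL5 was at 5579, 4825, 2907, 5690 and 5594, and GZMK had a 2.38-fold range, with late library 3 lowest in both. NKG7, a granule protein, was at 955, 1154, 391, 830 and 1326. CD8A and CD8B, the chains of the CD8 coreceptor, were at 738, 604, 260, 869 and 863 and at 763, 327, 288, 832 and 927. CCL4, another chemokine of activated T cells, left this order, with 743 in late library 1 as its lowest and 2012 in late library 5 as its highest value. Without late library 3 the log2 SD was 0.11 in place of 0.41 for CCL5, 0.27 in place of 0.47 for GZMK, 0.30 in place of 0.69 for NKG7, 0.25 in place of 0.72 for CD8A, 0.55 in place of 1.36 for GZMA, 0.66 in place of 1.00 for PRF1 and 0.48 in place of 0.82 for KLRG1.

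T cell genes were more even than B cell and cytotoxic genes. The list score lay between -0.22 in late library 3 and 0.30 in late library 4, and the summed values of the 26 listed genes differed by 1.42-fold. CD2, an adhesion molecule of T cells, was at 800, 882, 571, 1114 and 811, and CD3G and CD3D, further chains of the receptor complex, at 861, 519, 539, 936 and 803 and at 588, 522, 550, 723 and 869. CD3E had a log2 SD of 0.23, less than the median of all ranked genes. Within the list, SH2D1A, an adapter of T and natural killer cell signaling, was at 848, 520, 325, 759 and 601, and IL7R, the receptor for the survival cytokine IL-7, at 552, 486, 524, 248 and 285.

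Genes of T cell subsets varied more than those of the receptor complex. CTLA4, an inhibitory receptor of activated and regulatory T cells, was at 20.9, 125, 97.8, 115 and 166. Late library 1 was lowest by 4.68-fold, and without it the log2 SD was 0.32 in place of 1.15. TCF7, a transcription factor of naive and memory T cells, was at 482, 103, 313, 330 and 106, low in late libraries 2 and 5. CD4, which marks helper T cells and in dogs also some myeloid cells, was at 298, 56.1, 127, 240 and 177, with late library 2 lowest. Without late library 2 the log2 SD of CD4 was 0.53 in place of 0.94. FOXP3, the factor of regulatory T cells, stayed below the mean of 50 with 6.30 in late library 5 and 20.3 to 25.7 in the others.

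**Figure D4:**
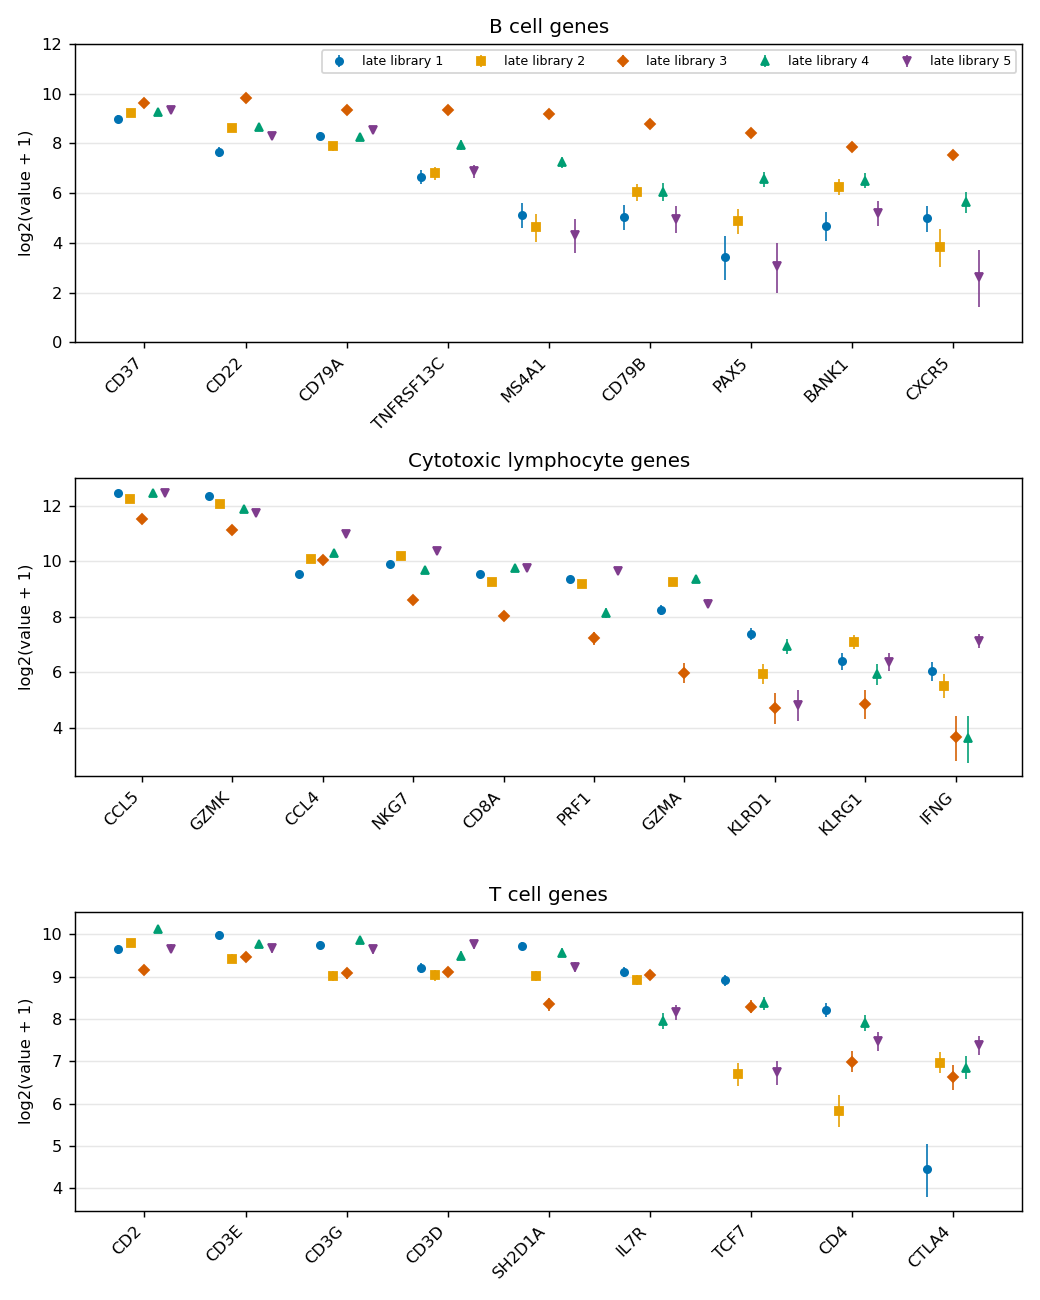
B cell, cytotoxic and T cell genes in each late library as log2(value + 1), with 1 symbol per library and bars for the exact Poisson 95% interval of its reads. Late library 3 is the highest for each B cell gene shown (MS4A1 576, PAX5 339) and the lowest for most cytotoxic genes (GZMA 62.0, PRF1 149), while CD3E stays between 686 and 1015.

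Transcripts of the macrophage list were present in all tumors, and 5 of 27 genes with a mean of at least 50 were variable. Which cells made these transcripts, the histiocytic tumor cells included, was not tested. Of the 27 genes, 12 were highest in late library 1, against 21.7% of all ranked genes. In turn, 12 were lowest in late library 3 and 11 in late library 2, against 24.3% and 17.5% of all ranked genes. The score was 0.45, -0.20, -0.54, 0.12 and 0.16. Without late library 3 its range was 0.64. LYZ, the antibacterial enzyme lysozyme and the highest gene of the list, was at 3995, 2755, 5979, 9991 and 2818, with late library 4 on top. The complement genes C1QA and C1QB were at 3302, 1502, 1839, 1965 and 2885 and at 2867, 1281, 1559, 2339 and 2304. The lysosomal proteases CTSB and CTSD ranged from 1959 to 3673 and from 1254 to 2780, each lowest in late library 3. CSF1R, the receptor for the macrophage growth factor, ranged from 802 to 1679, and it was chosen after its values were seen.

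The 5 variable macrophage genes had their highest value in late library 1 throughout, against 15.3% of all variable genes. CHI3L1, a chitinase-like secreted protein, was at 862, 256, 55.2, 516 and 776, and SPP1 (osteopontin) at 1933, 683, 148, 765 and 1023. Late library 3 was lowest for both, by 4.64-fold and 4.61-fold below the next. APOC1 and APOE, apolipoproteins of lipid-laden macrophages, were at 1959, 412, 206, 1405 and 472 and at 2014, 261, 851, 1207 and 687. The order of the libraries differed between these genes, since APOE was lowest in late library 2. MSR1, a scavenger receptor, was at 530, 144, 138, 73.6 and 261. Without late library 3 the log2 SD was 0.79 in place of 1.62 for CHI3L1 and 0.67 in place of 1.36 for SPP1, and without late library 2 that of APOE was 0.68 in place of 1.09.

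MHC class II genes were high everywhere, and the list summed to 67958, 64145, 96378, 79434 and 75359, or 2.46% ± 0.38 of a library. Of its 12 genes, 7 were highest in late library 3, against 22.8% of all ranked genes. DLA-DQA1, a further class II alpha chain, was at 2116, 2694, 5920, 5042 and 4928, low in late libraries 1 and 2. DLA-DOA was the variable member, at 273, 98.0, 522, 221 and 40.9. It forms part of a class II molecule that B cells use to restrain peptide loading. Late library 3 was highest for DLA-DOA and for the B cell score. Late library 1, with the lowest B cell score, was second for DLA-DOA, and a link to B cell content was not tested. CTSS, the protease that trims the invariant chain, was at 6913, 3918, 3166, 4878 and 6136 and was lowest in late library 3.

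Hair and epidermal genes were prominent among the largest differences. Of the 30 genes with the largest log2 SD, 14 had LOC symbols and 27 had a library at 0. Late library 3 was lowest for 24 of them, against 24.3% of all ranked genes. Of the 16 with a name, 9 belong to the hair follicle and hair shaft. KRT33B, a hair keratin, was at 127, 389, 0, 0 and 119, and KRT86, another one, at 156, 172, 0, 0 and 200. The reads allow a value of up to 2.91 in late library 3 and 3.07 in late library 4, so that KRT33B was at least 134-fold higher in late library 2 than in late library 3. KRTAP11-1, a hair keratin-associated protein, was at 109, 460, 0, 1.02 and 115. KRT34, KRT81, KRT85, KRTAP7-1, PRR9 and TCHH (trichohyalin, of the inner root sheath) had the same pattern, with 32.8 to 346 in late libraries 1, 2 and 5 and no more than 14.3 in late libraries 3 and 4. Over the hair keratins and keratin-associated proteins in the table, a list made after the values were seen, the sums were 1112, 2386, 3.87, 19.4 and 1092.

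Keratinocyte genes followed another order. The keratinocyte score was -1.23, 2.03, -1.85, -0.22 and 1.27, and the summed values were 1887, 16870, 1331, 3652 and 11423. Of the 23 genes with a mean of at least 50, 17 were highest in late library 2 (15.0% of all ranked genes) and 6 in late library 5 (21.4%). In turn, 17 were lowest in late library 3 (24.3% of all ranked genes) and 6 in late library 1 (21.3%). Late library 1 held hair keratins without a high level of epidermal keratins. KRT14 and KRT5, the keratin pair of the basal layer, were at 301, 1501, 94.9, 320 and 2541 and at 258, 1163, 164, 406 and 1949, highest in late library 5. KRT1 and KRT10, the pair of the suprabasal layers, were at 23.9, 2133, 63.0, 342 and 638 and at 258, 2545, 262, 556 and 655, highest in late library 2. KRT6A and KRT16, which are induced in wounded and hyperplastic epidermis, were at 66.6, 803, 23.2, 278 and 863 and at 33.8, 565, 9.68, 92.0 and 360. COL17A1, which anchors basal cells to the basement membrane, was at 3.98, 98.0, 10.7, 32.7 and 144. Without late library 2 the log2 SD of KRT10 was 0.71 in place of 1.35.

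The calprotectin genes S100A8 and S100A9 and the related S100A12, made by neutrophils, monocytes and activated keratinocytes, were highest in late library 2. S100A8 was at 137, 3471, 26.1, 322 and 554, S100A9 at 116, 1901, 22.3, 178 and 374, and S100A12 at 119, 3593, 37.8, 363 and 644. The order of the libraries was 2, 5, 4, 1 and 3 for all of them, and the keratinocyte sums had the same order. The neutrophil list, which holds these S100 genes, had a score of -0.46, 1.77, -1.76, 0.29 and 0.16. Of its 5 genes with a mean of at least 50, 4 were variable, beside 3.28% of all ranked genes. MPO, ELANE and PGLYRP1 had no read in any library, and CXCR2 did not exceed 8.18. CSF3R was at 39.8, 35.2, 3.87, 10.2 and 10.5, higher in late libraries 1 and 2 than in the others. The parts of keratinocyte and neutrophil content in the S100 values were not tested.

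**Figure D5:**
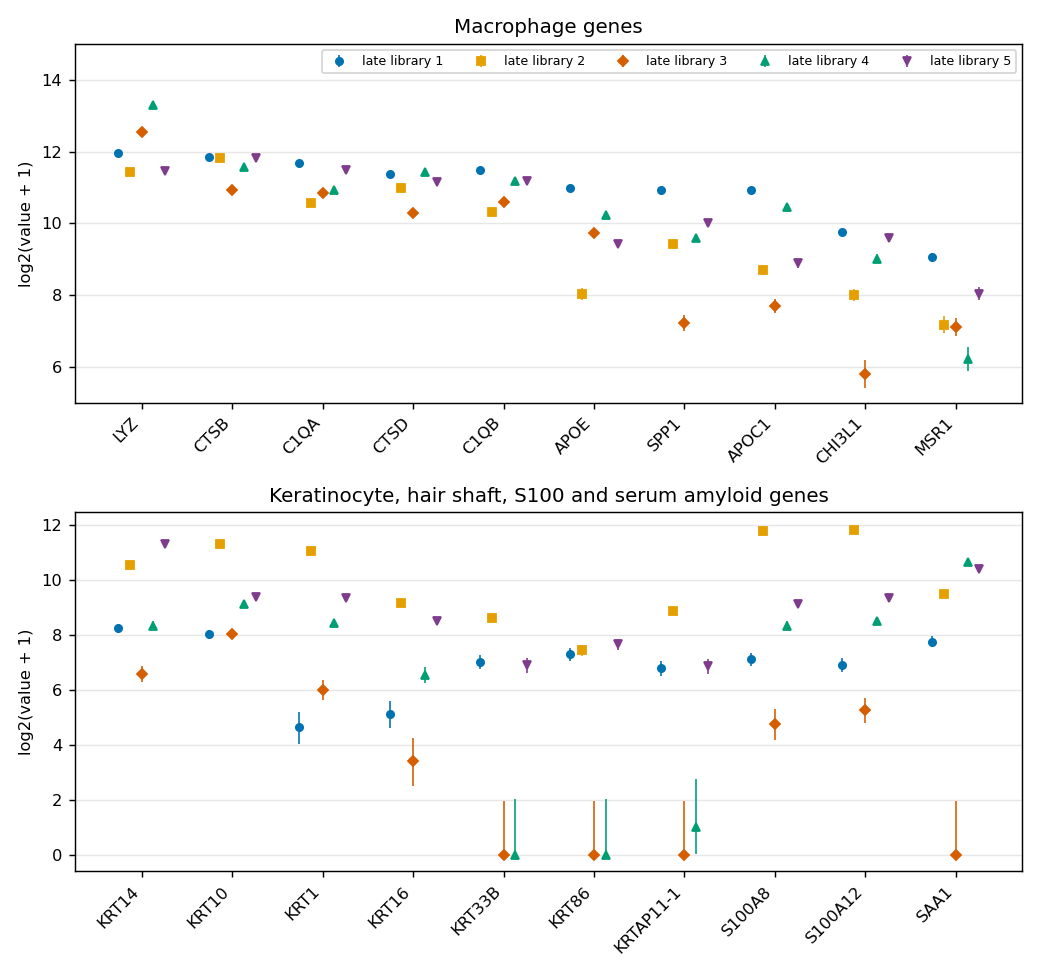
Macrophage genes (upper plot) and keratinocyte, hair shaft, S100 and serum amyloid genes (lower plot) in each late library as log2(value + 1), with 1 symbol per library and bars for the exact Poisson 95% interval, which for a library without a read ends at 3 reads. KRT33B and KRT86 are at 0 in late libraries 3 and 4, S100A8 reaches 3471 in late library 2, and the values of C1QA, C1QB, CTSB and CTSD lie close together.

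Among the other leading genes, serum amyloid A, an acute-phase protein, had the largest spread of any named gene. SAA1 was at 214, 715, 0, 1614 and 1340, and the copy SAA1_1 was at 214, 717, 0, 1633 and 1343. Reads that map to both copies had been divided evenly, and the level of each copy is uncertain. Late library 3 had no read, which allows a value of up to 2.91, and without it the log2 SD of SAA1 was 1.31 in place of 4.43. IFIT3, an interferon-induced antiviral protein, was at 0, 139, 146, 131 and 53.5, and late library 1 decided its spread (0.68 in place of 3.09 without it). FBP1, an enzyme of gluconeogenesis, was at 501, 8.56, 11.6, 1.02 and 31.5, and late library 1 exceeded the next library by 15.9-fold. Without late library 1 its log2 SD was 1.66 in place of 2.94. PLA2G5, a secreted phospholipase, was at 15.9, 197, 0.968, 145 and 197. CCDC153 was at 5.97, 77.1, 0, 49.1 and 155, and SYT14 at 23.9, 77.1, 143, 11.2 and 0. Without late library 3 the log2 SD was 1.71 in place of 2.93 for PLA2G5 and 1.93 in place of 2.97 for CCDC153, and without late library 5 that of SYT14 was 1.60 in place of 2.80.

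Among 8 lymphoid chemokine genes with a mean of at least 50, CXCL13 alone was variable, beside 3.28% of all ranked genes. The median log2 SD of this list was 0.66, and its summed values differed by 3.06-fold. CXCL13, the chemokine that attracts B cells through CXCR5, was at 19.9, 593, 471, 2037 and 190. Its highest library was late library 4 and not late library 3, which had the highest B cell score. Without late library 1 its log2 SD was 1.41 in place of 2.46. CXCL12 (432, 442, 495, 1131 and 262) and CCL19 (145, 412, 312, 587 and 340) were also highest in late library 4. LTB, a lymphotoxin chain, was highest in late library 3, at 287, 258, 599, 439 and 180. Of the 16 interferon response genes with a mean of at least 50, only IFIT3 was variable, beside 3.28% of all ranked genes. CXCL10, an interferon-induced T cell chemokine, was at 2954, 3151, 2138, 2250 and 3425.

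Few single stromal and proliferation genes were variable, as among all ranked genes (3.28%), although their list scores had ranges of 1.30 and 1.36. The fibroblast and matrix score was 0.72, 0.22, -0.58, 0.17 and -0.53, and 16 of the 25 genes were highest in late library 1, against 21.7% of all ranked genes. COL3A1 was at 4989, 2514, 1478, 2310 and 1337, and COL1A2 at 5218, 3383, 2280, 2761 and 1475, in the order of COL1A1. Only SFRP2, a secreted Wnt modulator of fibroblasts, was variable, at 301, 19.98, 42.6, 191 and 8.39. None of the 13 endothelial and 5 smooth muscle genes was variable. Of 22 proliferation genes, none was variable, yet 20 were lowest in late library 3 and 14 were highest in late library 5, against 24.3% and 21.4% of all ranked genes. TOP2A, which untangles replicated DNA, was at 507, 763, 296, 583 and 600. ADIPOQ, the adipocyte hormone adiponectin, was at 63.6, 24.7, 151, 13.3 and 3.15, highest in late library 3. All 23 skeletal muscle, 8 melanocyte and 4 erythrocyte genes in the table stayed below a mean of 50, and HPGDS was the only mast cell and eosinophil gene above it.

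The sample sheet of the study gives an RNA extraction batch for each sample identifier, and the column names carry these identifiers. The late tumors came from 2 batches, with late libraries 1, 3 and 5 in one and late libraries 2 and 4 in the other. Of all ranked genes, 17.9% did not overlap between the batches. Of the variable genes, 27 of 275 (9.82%) did not, and of the lists 2 of 14 B cell genes, 3 of 16 cytotoxic genes, 2 of 27 macrophage genes, 3 of 18 T cell genes and none of 23 keratinocyte genes. Late library 3 thus differed from late libraries 1 and 5 of its own batch, with B cell scores of 1.61 against -0.80 and -0.77 and cytotoxic scores of -0.94 against 0.33 and 0.26. Within the batch of 3 libraries, 397 genes had a log2 SD of at least 1, and 203 of them were among the 275.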

How the data were processed

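Total RNA of FFPE tumors was sequenced with QuantSeq 3′. According to the study's methods, the authors trimmed reads with Cutadapt, aligned them with STAR to CanFam3.1 (RefSeq annotation), and counted them with featureCounts, first on genes and then, for unassigned reads, on genes extended by 2 kb downstream. Reads with several mapping places were shared evenly. Versions are not given in the sources used here. The deposited signal is a normalized read count, which the authors obtained with 1 DESeq2 size factor per library. Within a tolerance of 0.01 reads, 100% of the 83367 values above 0 in the late columns were whole reads. Evenly shared reads would give fractions, so that the counts of genes with such reads may have been rounded. Poisson intervals of those genes are therefore approximate.

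Only the 5 late columns were used. Of 21 value columns, 5 belong to early tumors and 11 to no sample of the series, and none of these was used. Columns match a group but no single sample of the labels.

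Members of the lists, the limits and the rules were chosen with earlier results of these data known. Genes with a mean of at least 50 (8374) were ranked by the SD of log2(value + 1), and an SD of at least 1 was called variable. No pair of groups was compared and no p-value was computed, and Dixon's critical value served only to mark separate libraries. Of the symbols, 86.7% were found in the RefSeq table of assembly UU_Cfam_GSD_1.0, used for names only. Named were the 20 genes with the highest mean, the 30 most variable (LOC symbols counted only), CD79B, GZMK and CD3E, up to 5 members of each list by mean and by SD, and defining markers near 0. Genes outside the rule were chosen after their values were seen. A simulation of counts, in which 200 of 8374 genes were given a log2 SD well above the limit of 1, recovered 91.0% of them. The other genes were given a log2 SD below the median of the ranked genes. The simulation does not show what share of genes near the limit would be recovered, nor how often ordinary genes would pass it.

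Alternatives were TMM and column total scaling, other pseudocounts and mean minimums, removal of counting variance, the dispersions of edgeR 4.0.16 and DESeq2 1.42.0 on the recovered reads (R 4.3.3), 1 extraction batch, summed lists, and leaving out each library. Python 3.11.15, pandas 2.3.3 and scipy 1.17.1 were used. Some genes are not reported here.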

Additional observations from a re-analysis of the deposited data

Results flagged for a closer look

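Among 170 sets of 5 values examined (146 genes as log2(value + 1), 20 list scores and 4 library measures such as depth), 18 had a highest or lowest library whose gap to the nearest library exceeded 0.71 of the whole range, the 95% critical value of Dixon's test for 5 values. Chance marks about 1 in 20 of unselected, independent sets, but many of these genes were chosen for their spread or after their values were seen, so that no chance number applies to the 18 and they support nothing by their number. In 12 of the 18, the separate library was late library 3.

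Late library 3 was the separate high library for RPLP1 (gap of 0.713 of the range), LOC476206 (0.800), LOC111097575 (0.775) and the ribosomal protein score (0.714), and for the B lineage genes CD180 (0.843), CD79B (0.715) and BTLA (0.774). It was the separate low library for the cytotoxic score (0.854), CCL5 (0.754), SAA1_1 (0.726) and SAA1 (0.727), and for CCT7 (0.962), a subunit of a protein-folding complex.

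Late library 1 was the separate low library for DLA88 (0.726), IFIT3 (0.801) and CTLA4 (0.742). Late library 4 was low for VGF (0.805), and late library 5 was low for PAMR1 (0.913) and FOXP3 (0.828).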

How the results depend on the processing

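The 275 variable genes became 748 with a mean of at least 20, 128 with at least 100 and 5335 with no filter, as more or fewer genes entered the ranking. They were 106 with edgeR's biological coefficient of variation at the same limit, all among the 275, and the cause was not tested. Leaving out keratinocyte, hair shaft and LOC genes, an alternative added after the data were seen, left 177. Leaving out 1 library at a time gave 237 to 321 variable genes, a range of the B cell score of 0.78 to 2.41 and of the cytotoxic score of 0.18 to 1.27, where the lowest value of each belongs to the absence of late library 3. The other alternatives (TMM and column total scaling, pseudocounts of 0.5 and 5, counting variance removed, DESeq2 dispersion, 1 extraction batch) gave 224 to 397 variable genes. The scalings moved the median of the ranked genes by at most 0.02 on the log2 scale in any library. With all libraries kept, late library 3 had the highest B cell score in 9 of 9 alternatives and the lowest cytotoxic score in 9 of 9. For single genes, 1387 of 1460 alternative log2 SDs stayed within 1.5 times the reported value, and 69 of the other 73 came from leaving out a library. No paired analysis was possible because only 1 group was examined, the columns carry no replicate number and the tumors came from different dogs. Counting error limits low values, as for CD79B in late library 5, where 29 reads gave an interval of 20.4 to 43.7.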

Other observations

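Genes of glycolysis and the response to low oxygen, a list made after the values were seen, were highest in late library 5 for 20 of 24 members, against 21.4% of all ranked genes, with a score of 0.17, 0.23, -0.60, -0.59 and 0.80. EGLN3, an oxygen-sensing enzyme, was at 151, 85.6, 19.4, 21.5 and 279, HK2, which starts glycolysis, at 180, 92.3, 15.5, 64.4 and 334, and SLC2A1, the glucose transporter, at 161, 178, 86.2, 53.2 and 379. Late library 5 was the highest for each. Heat shock genes, also listed afterwards, were highest in the same library for 11 of 15 members, against 21.4% of all ranked genes. HSP70 was at 156, 229, 79.4, 40.9 and 1352, and DNAJB1, its cochaperone, at 79.5, 125, 90.1, 57.3 and 456. Without late library 5 the log2 SD was 1.08 in place of 1.90 for HSP70 and 0.46 in place of 1.15 for DNAJB1. Late library 5 also had the highest IFNG value and the highest proliferation score (0.50).

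Several variable genes outside the lists, chosen after their values were seen, had their own order of libraries. VGF, a secreted peptide precursor, was among the most abundant genes of 4 tumors, at 5546, 4359, 3665, 397 and 6278, and its log2 SD was 0.35 in place of 1.64 without late library 4. DNASE1L3, a nuclease secreted by dendritic cells and macrophages, was highest in late library 4, at 968, 229, 842, 3502 and 896. MMP1, a collagenase, was at 31.8, 80.9, 6.78, 339 and 16.8, and LNPEP, an aminopeptidase, at 32.8, 77.1, 42.6, 608 and 481. CCT7 was at 252, 257, 21.3, 259 and 277, and ASS1, an enzyme of arginine synthesis, at 34.8, 249, 490, 37.8 and 575. PIP, a product of apocrine glands, was at 177, 101, 10.7, 10.2 and 16.8, with late libraries 1 and 2 above the others. SPINK5, a protease inhibitor of the upper epidermis, was at 30.8, 641, 11.6, 79.8 and 159, in the same order of libraries as KRT16.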
